A study of Homo sapiens with 3 samples.

Results

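The genes of major histocompatibility complex (MHC) class I antigen presentation were followed in A549 cells, a line derived from a human lung adenocarcinoma, after transfection of *miR-139-5p* or *miR-139-3p*. The genes were *HLA-B*, *HLA-C*, *HLA-E*, *HLA-F*, *B2M*, *TAP1*, *TAP2*, *TAPBP* and *NLRC5*, and their probes were those whose RefSeq accession belongs to one of these symbols. All 9 genes were found, with 16 probes, among 22439 genes and 31104 probes that carried a RefSeq symbol and 58201 probes in all. Total RNA was hybridised to 3 arrays of 1 colour, 1 array for each condition. The mock array held cells that received the transfection reagent (Lipofectamine RNAiMAX) and no miRNA, so none of the arrays analysed here held a negative control precursor. The other arrays held cells transfected with the precursor of *miR-139-5p* or of *miR-139-3p*, at the 10 nM that the methods give for all precursors. With 1 array per condition, no difference between conditions has a replicate check, and the values below carry no test.

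MHC class I molecules show peptides from proteins made inside a cell to cytotoxic T cells and natural killer cells. The peptides are cut by proteasomes, carried into the endoplasmic reticulum by the TAP1-TAP2 transporter, and loaded with the help of tapasin onto a heavy chain that is paired with beta-2-microglobulin. Transcription of these genes responds to interferon and to NF-kappaB, and NLRC5 acts on their promoters as a co-activator together with RFX, CREB/ATF and NF-Y factors. Tumour cells often show less class I than the tissue they came from.

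The strands transfected come from opposite arms of one hairpin. Their mature sequences are shown because the seed, bases 2 to 8, largely sets which messages a miRNA pairs with. The seeds, in capitals, differ, so the strands do not belong to one seed family. The sequences are from RefSeq (GRCh38.p14, minus strand), at chr11:72615102-72615124 for *miR-139-5p* and chr11:72615066-72615088 for *miR-139-3p*.
miR-139-5p: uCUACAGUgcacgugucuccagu
miR-139-3p: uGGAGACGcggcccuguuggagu

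Levels below are processed signals, which are spot brightness after background subtraction, in arbitrary units. The 75th percentile of this signal was 93.6 on mock, 88.9 after *miR-139-5p* and 81.0 after *miR-139-3p*. Each log2 fold change was taken after each signal was divided by that percentile of its own array, so it is a difference relative to the bulk of the probes. A gene was counted as higher or lower when its mean over probes well above background passed 0.5 on the log2 scale in either direction, a fixed size and not a test. Between 48.1% and 53.1% of spots were well above background, and no spot was saturated. The mock and *miR-139-5p* arrays shared a slide and the *miR-139-3p* array lay on another, so for *miR-139-3p* the slide and the miRNA cannot be told apart. All 8 epithelial and A549 marker genes were well above background on every array, with a summed signal of 180390 on mock, 146533 on *miR-139-5p* and 92821 on *miR-139-3p*. This sum is set by a few bright probes, and not all of the list went its way: *EPCAM* (0.97), *CDH1* (0.36) and *KRT19* (0.18) had log2 fold changes above 0 after *miR-139-3p*. Of 7 leukocyte markers, 3, 3 and 4 were well above background, with summed signals of 339, 356 and 143. The lower sum after *miR-139-3p* came from *CD14*, which read 292 on mock and 64.0 there. The other leukocyte markers above background went the other way, with log2 fold changes of 1.35 and 1.17 for the *PTPRC* probes and a signal of 26.2 on mock and 48.5 after *miR-139-3p* for *ITGAM*, and *CD3E* was above background after *miR-139-3p* only. *MS4A1* and *NKG7* were not above background on any array, and neither were the endothelial marker *PECAM1* and the fibroblast markers *COL1A2* and *DCN*. Of 3 endothelial markers, 2, 1 and 2 were well above background with summed signals of 22.6, 18.8 and 37.4, and of 3 fibroblast markers 1 on each array with 42.2, 104 and 25.4. The part of these marker levels in the class I values was not tested. The values are also per RNA sample, in which fewer cells making a message and less message per cell cannot be told apart.

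After *miR-139-3p*, the class I genes did not move as a block. *HLA-B*, *HLA-C*, *TAP1* and *NLRC5* were higher by 1.61 to 1.97 times, whereas *B2M*, *TAP2* and *TAPBP* fell to between 0.606 and 0.614 of the mock level, and *HLA-E* and *HLA-F* lay between the thresholds. The counts were thus 4 higher and 3 lower of 9 genes, where 26.5% of 15572 genes with a value were higher and 27.9% were lower, and the median of the 9 was 0.42 against -0.05 over all genes. After *miR-139-5p*, none of the 9 genes passed 0.5 in either direction, where 10.7% of 15018 genes were higher and 12.3% were lower, and the median of the 9 was 0.22 against -0.01. Neither set of counts is evidence about the class I genes as a group, since no test was possible and a single mock array stands on one side of both. The share of calls that were higher, over all genes, stood at 48.8% after *miR-139-3p* and 46.6% after *miR-139-5p*. It became 34.2% and 33.9% with no scaling between arrays, and 35.1% and 66.7% when the arrays were scaled on their E1A spike-in probes.

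**Figure D1:**
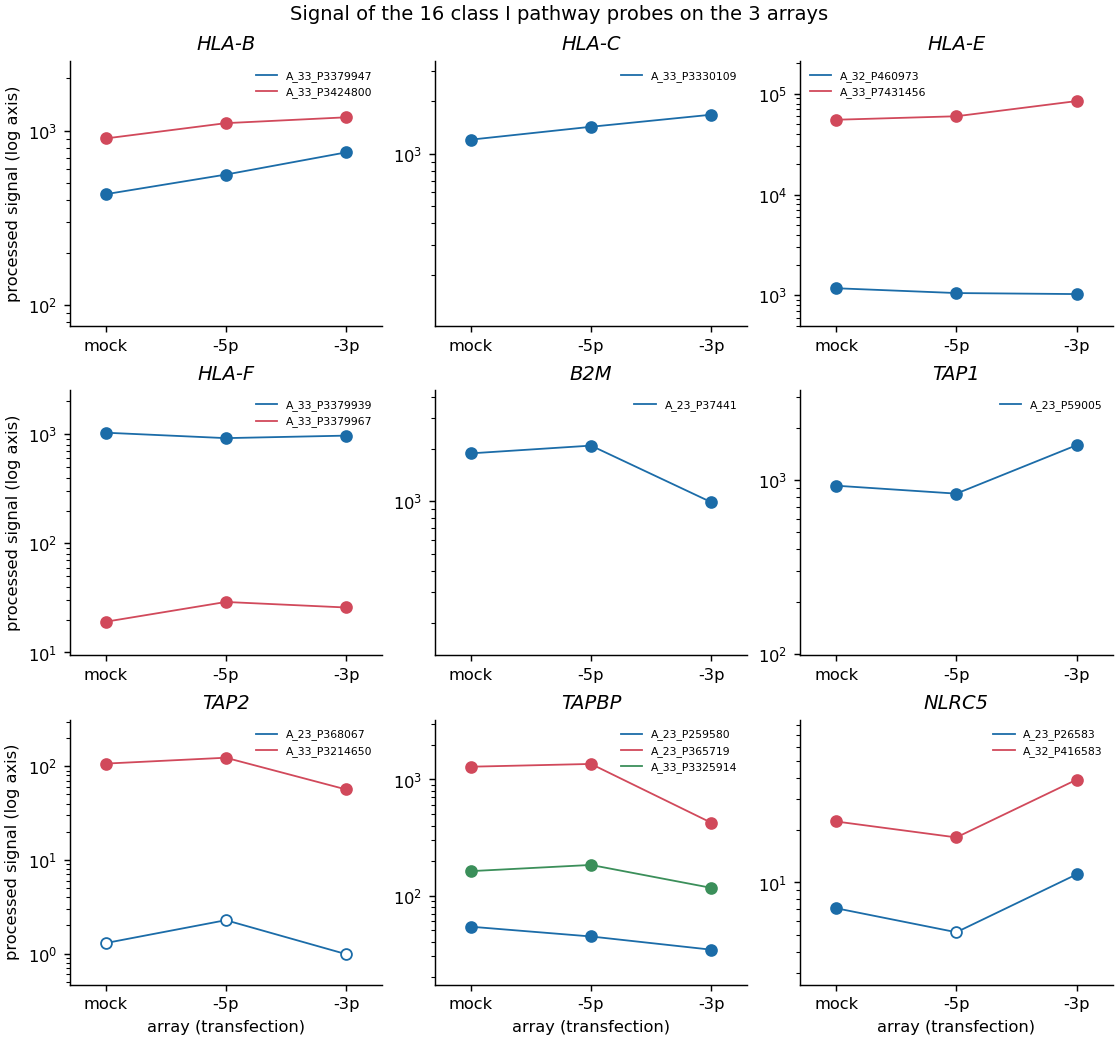
Processed signal (log axis, arbitrary units) of each of the 16 probes on the 3 arrays (mock, -5p and -3p on the x axis), 1 panel per gene, with a line joining the values of one probe. Filled points are well above background and open points are not, as for *TAP2* probe A_23_P368067 on all 3 arrays. The panels of *B2M*, *TAP2* and *TAPBP* are lowest on the *miR-139-3p* array, whereas those of *HLA-C*, *TAP1* and *NLRC5* are highest there.

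Among the heavy chains, *HLA-B* and *HLA-C* encode classical class I molecules, which present peptides to cytotoxic T cells. The first *HLA-B* probe (A_33_P3379947) read 433 on mock, 561 on *miR-139-5p* and 752 on *miR-139-3p*. The second (A_33_P3424800) read 904 on mock, 1108 on *miR-139-5p* and 1197 on *miR-139-3p*. Both probes were thus lowest on mock and highest on *miR-139-3p*. As a gene, *HLA-B* was 0.81 ± 0.28 (SD, n = 2 probes) on the log2 scale after *miR-139-3p* and 0.41 ± 0.06 (SD, n = 2 probes) after *miR-139-5p*. The single *HLA-C* probe read 1205 on mock, 1429 on *miR-139-5p* and 1676 on *miR-139-3p*, the same order of arrays as *HLA-B*. Its log2 fold change was 0.68 after *miR-139-3p* and 0.32 after *miR-139-5p*. The error that the scanner software gives each spot amounts to about 0.20 on a log2 difference of such bright probes, which is technical and holds no spread between cultures.

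*HLA-E* and *HLA-F* encode non-classical heavy chains. HLA-E shows leader peptides of other heavy chains to natural killer cells. Its probes disagreed: A_33_P7431456 read 55249 on mock, 59836 on *miR-139-5p* and 84620 on *miR-139-3p*, while A_32_P460973 read 1178, 1055 and 1031 on the same arrays. After *miR-139-3p* the log2 fold changes of these probes were 0.82 and 0.02, so the gene mean of 0.42 ± 0.57 (SD, n = 2 probes) describes neither. After *miR-139-5p* they were 0.19 and -0.08. *HLA-F* showed the same kind of split. Its bright probe (A_33_P3379939) read 1034 on mock, 922 on *miR-139-5p* and 972 on *miR-139-3p*, whereas its dim probe (A_33_P3379967) read 19.1, 29.0 and 25.8. The dim probe was lowest on mock and the bright probe was highest there before scaling. After scaling, the bright probe was at -0.09 after *miR-139-5p* and 0.12 after *miR-139-3p*. The dim probe was at 0.68 after *miR-139-5p*, and the gene mean was 0.29 ± 0.54 (SD, n = 2 probes). After *miR-139-3p* it was 0.38 ± 0.37 (SD, n = 2 probes). Class I heavy chain genes share long stretches of sequence, and the probe sequences were not used here, so whether each heavy chain probe reads its named gene alone was not tested.

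*B2M* encodes beta-2-microglobulin, the light chain that pairs with class I heavy chains. Its probe was spotted 10 times, which makes it the best measured of the class I genes within an array. The mean signal was 1887 on mock, 2091 on *miR-139-5p* and 989 on *miR-139-3p*, so that the last array stood below both others. The SD between spots was 0.05, 0.04 and 0.05 on the log2 scale. The log2 fold change was -0.72 after *miR-139-3p* and 0.22 after *miR-139-5p*. Thus the light chain and the classical heavy chains had opposite signs after *miR-139-3p* and the same sign after *miR-139-5p*.

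*TAP1* and *TAP2* encode the subunits of one peptide transporter, and neither subunit transports peptides alone. *TAP1* read 927 on mock, 835 on *miR-139-5p* and 1585 on *miR-139-3p*. *TAP2* read 107, 123 and 56.6 with the probe that was above background, and its other probe was not well above background on any array. The subunits thus stood apart on the *miR-139-3p* array, where *TAP1* was highest and *TAP2* lowest of the 3 arrays. The log2 fold change after *miR-139-3p* was 0.98 for *TAP1* and -0.71 for *TAP2*. After *miR-139-5p* it was -0.08 for *TAP1* and 0.28 for *TAP2*.

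*TAPBP* encodes tapasin, which bridges the transporter and the empty heavy chain. Its brightest probe (A_23_P365719) read 1288 on mock, 1360 on *miR-139-5p* and 424 on *miR-139-3p*. The other probes read 162, 183 and 117 (A_33_P3325914) and 53.9, 44.4 and 34.2 (A_23_P259580). All 3 probes were lowest on the *miR-139-3p* array, but by unequal amounts. Their log2 fold changes there were -1.39, -0.27 and -0.45, with a mean of -0.70 ± 0.60 (SD, n = 3 probes). The place of *TAPBP* past the threshold rests on the brightest probe, as the other probes did not pass it. After *miR-139-5p* the mean was 0.07 ± 0.24 (SD, n = 3 probes).

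*NLRC5* encodes the co-activator of class I transcription, and its probes were close to background. The brighter probe (A_32_P416583) read 22.4 on mock, 18.2 on *miR-139-5p* and 38.9 on *miR-139-3p*, and the dimmer (A_23_P26583) read 7.11, 5.18 and 11.1, of which the *miR-139-5p* value was not well above background. Both probes were highest after *miR-139-3p* and lowest after *miR-139-5p*. The log2 fold change was 0.93 ± 0.11 (SD, n = 2 probes) after *miR-139-3p* and -0.23 (1 probe) after *miR-139-5p*. The scanner error on the difference of the dimmer probe was 0.34. With another background correction (normexp) the gene's value after *miR-139-3p* was 0.16, under the threshold.

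**Figure D2:**
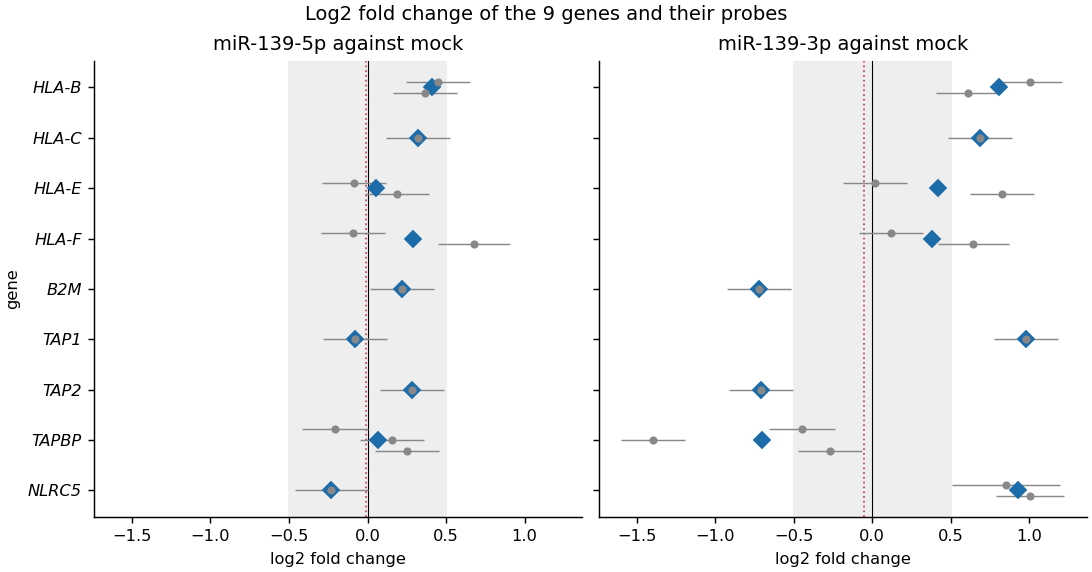
Log2 fold change against mock of the 9 class I genes after *miR-139-5p* (left) and *miR-139-3p* (right). Grey points are probes with the error that the scanner software gives, blue diamonds are gene means, the grey band spans -0.5 to 0.5 and the dotted line is the median of all genes. On the left every diamond lies in the band, whereas on the right *HLA-B*, *HLA-C*, *TAP1* and *NLRC5* lie to its right and *B2M*, *TAP2* and *TAPBP* to its left.

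Taken by role, the 4 heavy chains had a median log2 fold change of 0.55 after *miR-139-3p*, with 2 genes higher and none lower. The light chain, the transporter subunits and tapasin had a median of -0.71, with 1 gene higher and 3 lower. Over all genes 26.5% were higher and 27.9% lower, and with 4 genes each these counts are a description of the genes and not a result about their roles. After *miR-139-5p* the medians were 0.31 and 0.14. Probe by probe, 8 of 15 class I probes were above 0.5 and 3 were below -0.5 after *miR-139-3p*, where 23.7% and 29.7% of the 18923 probes with a RefSeq symbol and a value were, and the values ran from -1.39 to 1.01. After *miR-139-5p*, 1 of 14 (the dim *HLA-F* probe) was above 0.5 and none was below -0.5, where 10.8% and 12% of 18956 probes were, and they ran from -0.23 to 0.68. Probes of one gene share a target and are not independent.

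Under 10 other ways of processing the same arrays, each of the 9 genes kept the sign of its *miR-139-3p* value in all 10, including all scalings. *HLA-B*, *TAP1* and *TAPBP* also stayed past 0.5 in all 10, *B2M* and *NLRC5* in 9, and *HLA-C* and *TAP2* in 8. *HLA-E* passed 0.5 in 2 of them and *HLA-F* in 1. After *miR-139-5p*, *HLA-E* kept its sign in 6 of 10, and *HLA-F*, *TAP1* and *TAPBP* in 9 each.

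**Figure D3:**
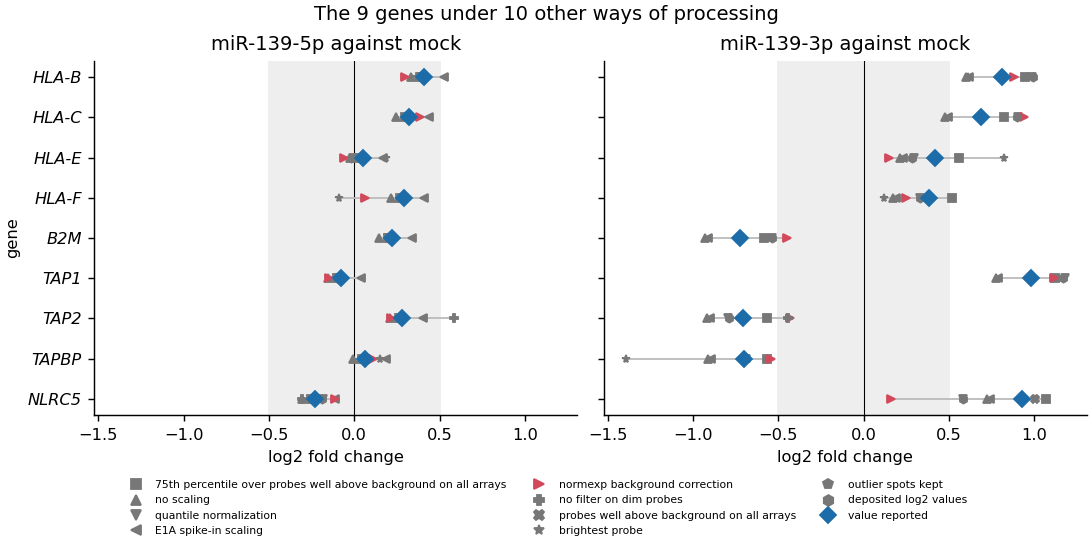
Log2 fold change of the 9 class I genes after *miR-139-5p* (left) and *miR-139-3p* (right) as reported (blue diamonds) and under 10 other ways of processing (other symbols, normexp in red), with the band of -0.5 to 0.5 in grey. On the right no gene crosses 0, and the widest spans are those of *NLRC5*, from 0.16 to 1.07, and *TAPBP*, from -1.39 to -0.54. On the left *HLA-E*, *HLA-F*, *TAP1* and *TAPBP* cross 0.

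*HLA-B*, *HLA-C*, *HLA-E*, *HLA-F*, *TAP1*, *TAP2* and *TAPBP* lie in the MHC on chromosome 6, while *B2M* lies on chromosome 15. Between *HLA-F* and *TAPBP* the annotation holds 133 other protein-coding genes. After *miR-139-3p*, 31 of the 101 with a value were higher and 30 were lower, near the 26.5% and 27.9% of all genes, with a median of -0.10. After *miR-139-5p*, 5 of 96 were higher and 14 lower, where 10.7% and 12.3% of all genes were, with a median of -0.14. At the transporter genes, neighbours in the order *HLA-DOB*, *TAP2*, *PSMB8*, *TAP1*, *PSMB9* and *HLA-DMB* had log2 fold changes of 0.51, -0.71, 0.62, 0.98, 0.49 and -1.82 after *miR-139-3p*. *TAP2* and *HLA-DMB* were below 0 and the others above it. *PSMB8* and *PSMB9* encode catalytic subunits of the immunoproteasome. After *miR-139-5p* the same genes had 0.32, 0.28, 0.13, -0.08, 0.18 and 0.44, all within the threshold.

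The promoters of the class I genes are shown because they carry the elements through which interferon, NF-kappaB and the NLRC5 complex are known to act. Of the 9 genes, 7 have an entry in the RefSeq promoter table (GRCh38.p14), which spans 250 bases before to 50 after each start and holds 35116 promoters. *HLA-E* and *NLRC5* have none there. *TAP1* has entries for 2 starts. On either strand, overlapping matches included, the interferon response motif, which is GAAA, any 2 bases and GAAA again, was present in the promoters of *B2M*, *HLA-F*, *TAP1*, *TAP2* and *TAPBP*, and in 3.57% of all promoters. The matches are in capitals, and each window is printed on the strand of its gene, so that a match on the other strand shows as its complement (TTTC).
B2M, chr15:44711366-44711395: actctaaGAAAAGGAAACTGAAAacgggaa
HLA-F, chr6:29723268-29723297: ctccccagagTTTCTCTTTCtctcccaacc
TAP1, chr6:32853816-32853845: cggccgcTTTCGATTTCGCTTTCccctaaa
TAP2, chr6:32838778-32838807: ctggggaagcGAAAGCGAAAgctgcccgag
TAPBP, chr6:33314076-33314105: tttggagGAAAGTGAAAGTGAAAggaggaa

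These 5 genes were not alike on the *miR-139-3p* array, where *TAP1* was higher, *B2M*, *TAP2* and *TAPBP* were lower and *HLA-F* was between the thresholds. The NF-kappaB motif, searched as GGG, any 2 bases, TT, any base and CC, was present in 4 of the 7 genes and in 5.68% of all promoters.
B2M, chr15:44711382-44711411: actgaaaacgGGAAAGTCCCtctctctaac
HLA-B, chr6:31357337-31357366: gcgcagcgttGGGGATTCCCcactcccctg
TAP1, chr6:32853757-32853786: gcctgttcctGGGACTTTCCgagagccccg
TAPBP, chr6:33314115-33314144: taaccagagcGGGGATTTCCaccgcccctc

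Of these 4, *HLA-B* and *TAP1* were higher and *B2M* and *TAPBP* lower after *miR-139-3p*. The CCAAT box, bound by NF-Y, was searched as ATTGG and was present in *B2M*, *HLA-B*, *HLA-C*, *HLA-F* and *TAP1*, and in 34.6% of all promoters. The heavy chains carried one at nearly the same distance from the start, within closely similar sequence.
HLA-B, chr6:31357219-31357248: atatctagagaagCCAATcagcgtcgccgc
HLA-C, chr6:31272132-31272161: ggttctagagaagCCAATcagcgtctccgc
HLA-F, chr6:29723364-29723393: gtttctagagaagCCAATcagtgtcgccgc

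The core of the CRE element, TGACG, bound by CREB and ATF factors, was present in *B2M*, *HLA-B*, *HLA-C* and *TAP2*, and in 24.6% of all promoters. A match is a description of these letters and not a site shown to be used.

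**Figure D4:**
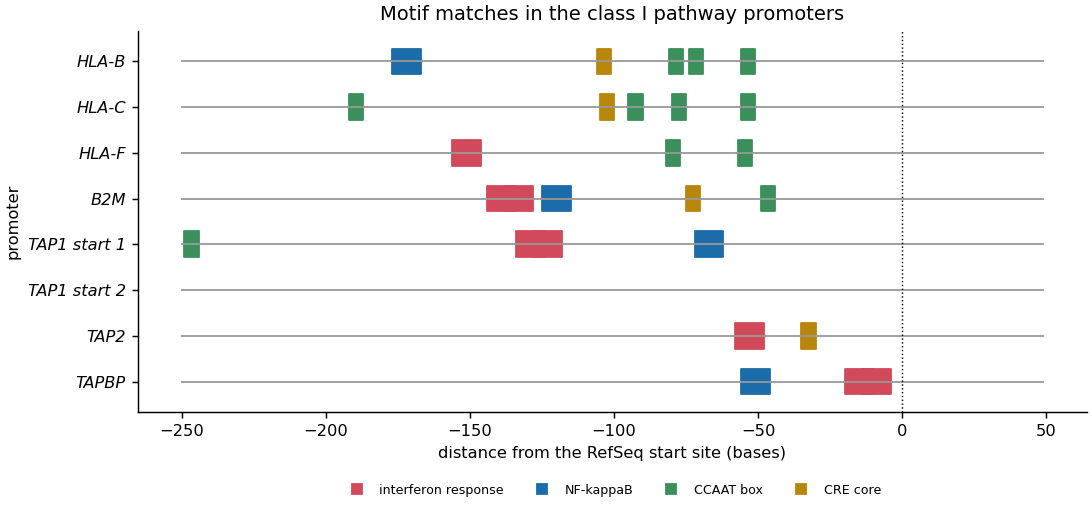
Position of motif matches, in bases from the RefSeq start site, in the 8 promoter entries of the 7 class I genes that have one. Grey lines span the window searched and coloured blocks are matches to the 4 motifs named in the key. *HLA-B*, *HLA-C* and *HLA-F* share a CCAAT box close to the start, while *TAP2* and *TAPBP* show an interferon response match near the start and no CCAAT box.

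The factors that act on such promoters were described next, from lists compiled with earlier results of these arrays known. Of the NF-kappaB list, 3 of 6 genes were higher and none lower after *miR-139-3p*, with a median of 0.95. Over all genes 26.5% were higher and 27.9% lower after *miR-139-3p*, with a median of -0.05, and 10.7% and 12.3% after *miR-139-5p*, with a median of -0.01, and these lists are too small for their counts to be more than a description. *NFKB2*, the precursor of the p52 subunit, read 70.2 on mock, 128 on *miR-139-5p* and 432 on *miR-139-3p*. *RELB*, the partner of p52, read 920, 1390 and 2729. Both were lowest on mock and highest on *miR-139-3p*. Their log2 fold changes were 2.83 and 1.78 after *miR-139-3p*, and 0.94 and 0.67 after *miR-139-5p*, where they were the 2 of 6 that were higher. *NFKBIA*, an inhibitor that is itself an NF-kappaB target, was at 1.60 and 0.20, whereas the classical subunits *NFKB1* and *RELA* were at 0.30 and -0.41 after *miR-139-3p*.

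In the promoter-binding list, 1 gene was higher and 7 lower of 10 after *miR-139-3p*, against 26.5% and 27.9% of all genes, with a median of -0.79. All 3 NF-Y subunits were lower, at -0.88 for *NFYA*, -1.03 for *NFYB* and -0.88 for *NFYC*, and they stayed below 0 in all 10 other ways of processing. *CREB1* was at -1.02. *EHMT2* (-0.78) and *EZH2* (-0.80), which encode histone methyltransferases linked to silencing rather than activation, were lower too. The only higher gene was *RFX5*, the DNA-binding RFX subunit, at 0.80, and it was the only gene of the list past the threshold after *miR-139-5p*, at -0.69. Its probes read 320 and 330 on mock, 187 and 196 on *miR-139-5p*, and 555 and 434 on *miR-139-3p*. Thus both *RFX5* probes were lowest on *miR-139-5p* and highest on *miR-139-3p*, the same order as both *NLRC5* probes. The dimmer *NLRC5* probe was not well above background on *miR-139-5p*, however. The other RFX subunits did not share this order. *RFXANK* was at -0.37 after *miR-139-5p* and -0.52 after *miR-139-3p*, and *RFXAP*, which read 16.5 on mock, was at 0.41 and 0.31. *CIITA*, the class II co-activator, was not above background on any array.

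Of 10 genes for peptide loading and trimming, 4 were higher and 2 lower after *miR-139-3p*, against 26.5% and 27.9% of all genes, with a median of 0.06. *ERAP2* (0.97) and *ERAP1* (0.69), which trim peptides in the endoplasmic reticulum, were higher. *CANX*, the chaperone of new heavy chains, was at -1.05 and *SPPL3*, an intramembrane protease, at -0.75. *CALR* and *PDIA3*, both parts of the loading complex, were at -0.44 each and did not pass. After *miR-139-5p*, 3 were higher and none lower, among them *TAPBPL* (0.91), a tapasin-related editor, *HSPA5* (0.64) and *ERAP1* (0.53). The *TAPBPL* probe was dim, at 15.1 on mock and 27.1 on *miR-139-5p*.

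The immunoproteasome list held 1 higher and 1 lower of 7 genes after *miR-139-3p*, against 26.5% and 27.9% of all genes, with a median of 0.29. *PSMB8* read 119 on mock, 124 on *miR-139-5p* and 158 on *miR-139-3p*, a log2 fold change of 0.62 for the last, and *PSMB9* stood just under the threshold at 0.49. *PSME3*, the nuclear proteasome activator that interferon does not induce, read 2338, 1766 and 694 and was at -1.54. None of the 7 passed the threshold after *miR-139-5p*.

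Of 17 interferon signalling genes with a value, 1 was higher and 5 lower after *miR-139-3p*, against 26.5% and 27.9% of all genes, with a median of -0.11. *STAT3* (0.57) was the one higher, and *IRF3* (-1.03) and the STAT phosphatase gene *PTPN2* (-0.79) were lowest. *IRF1*, a direct activator of class I promoters, read 49.5 on mock, 34.5 on *miR-139-5p* and 59.2 on *miR-139-3p*, or -0.45 and 0.47 on the log2 scale, both within the threshold. After *miR-139-5p*, 2 of 18 were higher, which were the receptor subunits *IFNAR1* (0.57) and *IFNAR2* (0.50). Of 21 interferon-stimulated genes with a value, 7 were higher and 7 lower after *miR-139-3p*, near the 26.5% and 27.9% of all genes, with a median of -0.15. *IFIH1*, an RNA sensor, was at 2.23 and *MX1*, an antiviral GTPase, at 1.17, against -1.53 for *OAS1* and -1.38 for *IFITM3*. After *miR-139-5p*, 4 of 19 were higher and 3 lower, with a median of -0.01, from -1.64 for *OASL* to 0.84 for *IFI6*. The next lowest was *IFITM1*, at -1.40 after *miR-139-5p* and -1.20 after *miR-139-3p*. The next highest after *miR-139-5p* was *OAS1*, at 0.82.

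**Figure D5:**
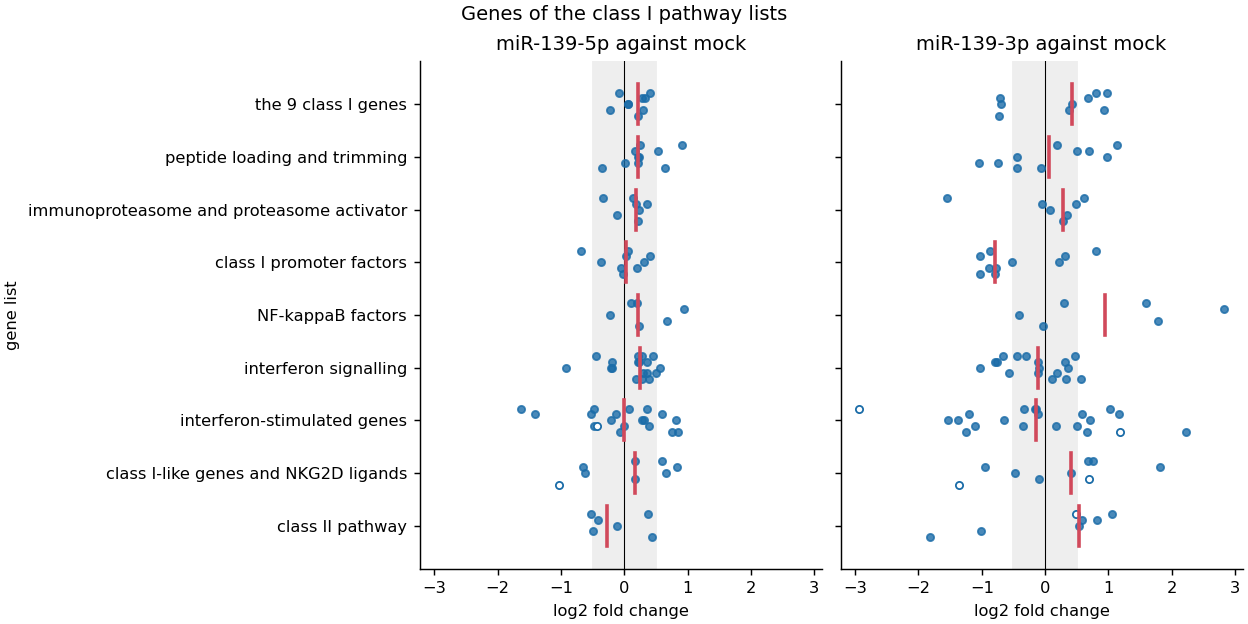
Log2 fold change against mock of the genes with a value in the class I list and the 8 pathway lists, after *miR-139-5p* (left) and *miR-139-3p* (right). Each point is a gene, an open point is a bound for a gene above background on 1 of the 2 arrays only, the red bar is the list's median and the grey band spans -0.5 to 0.5. On the right the NF-kappaB median lies at 0.95 and the promoter factor median at -0.79, whereas on the left the medians of all lists lie in the band.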

How the data were processed

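For each of the 3 arrays the authors deposited spot intensities read by Agilent Feature Extraction 12.1.1.1, which subtracted background and made no normalization between arrays. A second deposited table gave log2 values by probe, which matched the quantile-normalized log2 signals (Pearson's r of 0.99997 to 0.99999 over probes, median 2.21 on each array, so not centred) and served as an alternative. Spots flagged as outliers (614, 935 and 1526 on mock, -5p and -3p) were left out. From the rest, log2 of the processed signal minus that of the array's 75th percentile was averaged over spots of a probe. A probe was well above background where at least 50% of its spots were, and the value of a gene was the mean over its probes that met this on both arrays compared. A gene with none had a bound from its brightest probe on 1 array. Symbols came from RefSeq (GRCh38.p14) through the probe accession: 24751 of 25277 coding accessions matched.

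Named were all 9 class I genes, up to 2 highest and 2 lowest measured genes past 0.5 in each of 8 lists (105 genes), and 12 set pathway genes. Further list genes were named after their values were seen. The class I genes, the lists and the naming rule were chosen with earlier results of these data known. The lists come from general knowledge and were not checked against a source. Both comparisons were differences between single arrays that share mock. Of 12 other ways of processing listed, 11 were run. Seed matches in 3′UTRs were not analysed here, and single values of some list genes are not reported here. Python 3.11.15 and R 4.3.3 with limma 3.58.1 (normexp) were used.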

Additional observations from a re-analysis of the deposited data

How the results depend on the processing

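Of the counts of class I genes, those for *miR-139-3p* kept within 1.5 times of 4 higher and 3 lower under all but 2 alternatives: normexp background correction left 1 lower, and a threshold of 1 left 0 in either direction. For *miR-139-5p*, E1A scaling and no filter on dim probes each gave 1 higher gene in place of none (*HLA-B* and *TAP2*). In the union of the 8 lists, 14 genes were higher and 9 lower after *miR-139-5p*, and 25 and 26 after *miR-139-3p*. No scaling gave 14 lower after *miR-139-5p* and 15 higher after *miR-139-3p*, and E1A scaling gave 15 higher after *miR-139-3p*. With normexp the counts were 6 and 3 after *miR-139-5p*, and 13 and 15 after *miR-139-3p*. With a threshold of 1 they were 0 and 3, and 10 and 14. *CTSS* after *miR-139-3p* turned to -0.018 with normexp, and *HFE* to 0.18 with no filter, which counts a probe at background. The median of all genes after *miR-139-3p* moved from -0.05 to -0.26 with no scaling, -0.24 with E1A scaling and 0.09 with the percentile taken over detected probes, and after *miR-139-5p* from -0.01 to 0.11 with E1A scaling. Normexp used median spot signals. Naming probes by the gene name written on the array was not run here for lack of that column. No paired analysis was possible because each condition had 1 array. With 1 array per condition the spread between cultures is unknown, and the signals of *NLRC5* and of the dim *HLA-F* probe lie close to background. Among list genes, the mock signals of *IFIH1*, *MX1*, *TAPBPL* and *RFXAP* were about as low as that of the dim *HLA-F* probe.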

Other observations

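The class I-like genes include ligands by which stressed cells are seen by the natural killer receptor NKG2D. Of 9 genes with a value, 4 were higher and 2 lower after *miR-139-3p*, with a median of 0.42, and of 8 with a value 3 were higher and 3 lower after *miR-139-5p*, with a median of 0.17. Over all genes 26.5% were higher and 27.9% lower after *miR-139-3p*, and 10.7% and 12.3% after *miR-139-5p*. *MICB*, an NKG2D ligand, read 436 on mock, 923 on *miR-139-5p* and 1232 on *miR-139-3p* with one probe, and 67.0, 91.1 and 221 with the other. Both probes were lowest on mock and highest on *miR-139-3p*. The gene was at 0.84 after *miR-139-5p* and 1.82 after *miR-139-3p*. Its relative *MICA* was at 0.60 and 0.68. The other NKG2D ligands with a value were below 0 after *miR-139-3p*, with *ULBP1* at -0.47, *ULBP2* at -0.10 (a sign that turned when the percentile was taken over detected probes) and *RAET1E*, above background on mock only, at a bound of -1.36. After *miR-139-5p* *ULBP1* was at 0.66 and the bound of *RAET1E* was -1.02. *MR1*, which presents vitamin metabolites, was at 0.75 after *miR-139-3p* and 0.16 after *miR-139-5p*. *HFE*, a heavy chain that acts in iron control, was at -0.65 after *miR-139-5p* and -0.95 after *miR-139-3p*, and the latter turned to 0.18 when a probe at background was counted. *FCGRT*, the neonatal antibody receptor, was at -0.62 and 0.42.

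The class II pathway was near background in large part: *HLA-DRA* and *CD74*, which class II needs, were not well above background on any array. Of 7 genes with a value, 4 were higher and 2 lower after *miR-139-3p*, against the same 26.5% and 27.9% of all genes, with a median of 0.53, and of 6 after *miR-139-5p* none was higher and 1 was lower, with a median of -0.27. The lower genes after *miR-139-3p* encode the peptide editor of class II. *HLA-DMB* read 1005 on mock, 1297 on *miR-139-5p* and 246 on *miR-139-3p*, or -1.82 for the last, and *HLA-DMA* was at -1.01. *HLA-DRB1* read 42.2, 27.7 and 75.7, or -0.53 and 1.05. *HLA-DQB1* was at 0.81 after *miR-139-3p* on 1 of its 5 probes, the others being not well above background on any array.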
